A study of Mus musculus with 5 samples.

Results

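The BMP (bone morphogenetic protein) pathway was followed through 10 mouse genes in neural tubes with and without the erythropoietin receptor. The genes were the ligands Bmp4 and Bmp7, the receptors Bmpr1a and Bmpr2, the signal transducers Smad1 and Smad5, and the target genes Id1, Id2, Id3 and Id4. They were chosen by name, with earlier results of these data known, and were taken by symbol from the 23284 genes counted in each sample. All 10 passed the filter on low counts, above 1 CPM (the read count scaled to library size) in 2 samples or more, as did 12703 of the 23284 genes. The data were polyA RNA-seq of whole neural tubes dissected manually and with enzymes from embryos of EpoR+/- parents, and the labels give their age as E8.5, while the paper's methods give a slightly later age. There were 2 EpoR-null samples (EpoR -/-) and 3 littermate controls, of which 2 were wild type (EpoR +/+) and 1 was a heterozygote (EpoR +/-). The null allele was carried by every cell of the embryo, blood cells included. The sources used here do not say whether a sample was 1 embryo or a pool, so p-values measure only the spread between these samples.

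BMPs are secreted ligands that bring together type I receptors such as Bmpr1a and type II receptors such as Bmpr2. The type II receptor phosphorylates the type I receptor, which phosphorylates Smad1 and Smad5. These bind Smad4, enter the nucleus and switch on target genes, of which the Id genes are among the most direct. In the neural tube, BMPs from the surface ectoderm and the roof plate pattern the dorsal side. Id proteins have a helix-loop-helix region but no DNA-binding region, so they hold E proteins and other helix-loop-helix factors away from DNA and delay differentiation. RNA levels of the pathway do not measure phosphorylated Smads.

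The helix-loop-helix region is what makes the 4 Id genes a family, and the stretch that codes for most of it is shown here to let the reader judge how far reads of the genes can be told apart. It is the 41-codon window most alike in the 4 genes in GENCODE M21 (mouse build GRCm38), and in each gene it lies within 1 coding exon. The sequences are written 5′ to 3′ on the coding strand, with capitals at the 70 of 123 bases that are the same in all 4 genes. The window covers codons 60 to 100 of 168 in Id1 (chr2:152736518-152736640, plus strand), codons 37 to 77 of 155 in Id2 (chr12:25095780-25095902, minus strand), codons 42 to 82 of 119 in Id3 (chr4:136144002-136144124, plus strand) and codons 66 to 106 of 161 in Id4 (chr13:48261693-48261815, plus strand).
Id1: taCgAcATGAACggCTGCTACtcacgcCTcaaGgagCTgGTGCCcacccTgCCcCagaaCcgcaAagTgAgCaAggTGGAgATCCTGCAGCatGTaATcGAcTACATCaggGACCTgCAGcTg
Id2: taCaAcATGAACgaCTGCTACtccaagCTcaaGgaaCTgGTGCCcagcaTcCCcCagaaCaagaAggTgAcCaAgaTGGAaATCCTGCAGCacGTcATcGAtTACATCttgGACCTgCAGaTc
Id3: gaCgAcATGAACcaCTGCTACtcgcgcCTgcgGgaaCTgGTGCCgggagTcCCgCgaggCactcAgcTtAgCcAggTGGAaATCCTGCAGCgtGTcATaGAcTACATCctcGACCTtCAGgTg
Id4: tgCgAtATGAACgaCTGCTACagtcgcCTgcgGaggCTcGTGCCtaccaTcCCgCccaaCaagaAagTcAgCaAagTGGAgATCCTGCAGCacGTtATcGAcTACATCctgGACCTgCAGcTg
Within the window, Id1 and Id2 were the most alike pair, with 80.5% of bases identical, and Id3 matched each of the other 3 genes at 70.7%. Over whole transcripts the longest identical run of any Id pair was 19 bases, between Id2 and Id3. The longest run was 17 bases for Smad1 and Smad5 and 28 bases for Bmp4 and Bmp7. Reads of these genes are longer than such runs, so no read can match 2 of them exactly over its whole length. Exons of Bmp4, Bmpr1a and Id4 overlap genes annotated on the opposite strand, by 89 bases for Bmp4 (Gm15217), 290 bases for Bmpr1a (Gm17110) and 82 and 171 bases for Id4 (A330033J07Rik and Gm49291). Whether counting used the strand is not given in the sources used here. Of these neighbours, only Gm15217 was in the count tables, with at most 2 reads in a sample.

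Between 19316126 and 41169218 reads per sample were counted on genes, so that 3 reads were worth 0.0715 to 0.152 CPM. Epor itself had 2.36 and 1.62 CPM in the wild type samples, 0.476 CPM in the library labelled heterozygote, and 0.354 and 0.669 CPM in the EpoR-null samples. The library labelled heterozygote thus lay between the EpoR-null samples and below both wild type samples (log2 fold change of EpoR-null against all controls -1.51, standard error 0.76, FDR = 0.28). Epor reads remained in both EpoR-null samples, 7 and 19 of them, and the sources used here do not say which part of the gene the allele lacks. The 12 neural progenitor markers, Sox2 and Nes among them, were present in every sample and summed to between 1511 and 1900 CPM. Marker sums of crest, surface ectoderm, mesenchyme, endothelial and erythroid cells were lowest in the library labelled heterozygote. In that library the sums of roof plate and of notochord and floor plate markers were not the lowest. There the 8 endothelial markers summed to 26.7 CPM against 215.1 and 340.7 CPM in the wild type samples, and the 9 primitive erythroid markers, a list that holds Epor, to 44.7 CPM against 1095 and 605.1 CPM. The 10 somite and mesenchyme markers summed to 13.1 CPM in that library, 90.8 and 84.7 CPM in the wild type samples and 176.8 and 61.0 CPM in the EpoR-null samples. No marker gene of any of the 8 lists passed the test defined in the next paragraph. Values without this library are therefore also given for those of the 10 genes whose direction changed, and for called genes that no longer passed. Medians of lists and length classes, correlations and shares of genes whose groups did not overlap are given only with it.

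**Figure D1:**
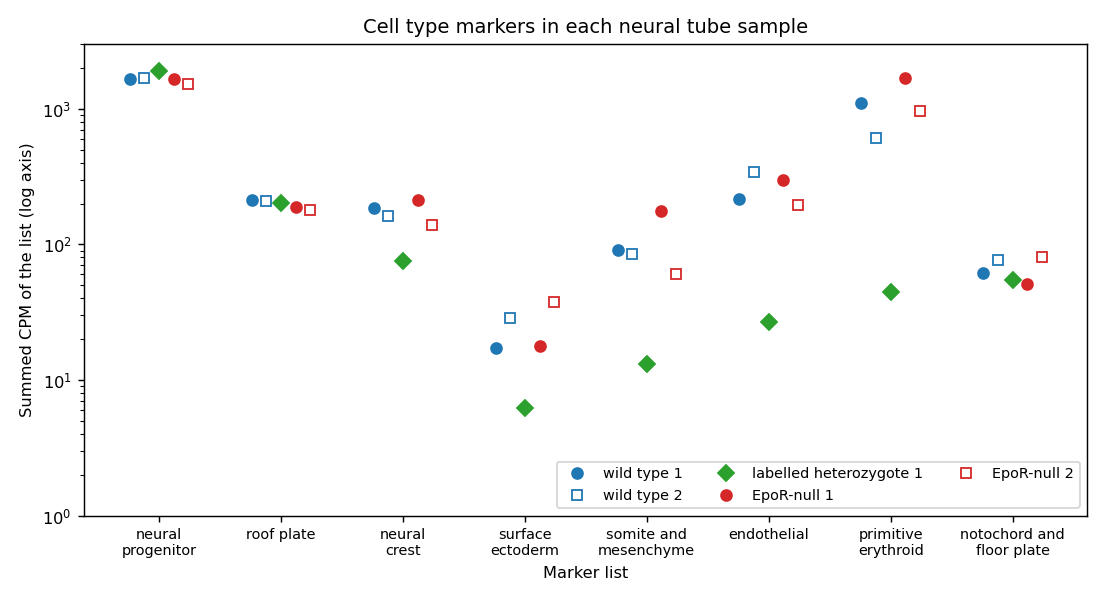
Summed CPM (log axis) of the marker genes of 8 cell types in each of the 5 samples, 1 point per sample. The library labelled heterozygote (diamond) is the lowest sample for crest, surface ectoderm, mesenchyme, endothelial and erythroid markers, while neural progenitor sums lie between 1511 and 1900 CPM in all samples.

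None of the 10 genes passed the test between EpoR-null and control neural tubes. The test was the exact test of edgeR, and a gene counted as changed at p below 0.001 and FDR (Benjamini-Hochberg adjusted p over all tested genes) below 0.05. By the same test 4.77% of all tested genes changed (3.84% lower and 0.929% higher in EpoR-null), so that a list of 10 genes with no call is near the background. By FDR alone none of the 10 passed either, against 7.31% of all genes. At an unadjusted p below 0.05 there were 2 of the 10, Bmpr1a and Bmpr2, beside 19.8% of all genes. Without the library labelled heterozygote, 1 of the 10 was left, Bmpr2. Over all genes, 1535 then had an unadjusted p below 0.05, against 2515 with all samples, and 253 were called, against 606. The filter on low counts was applied anew in that fit, so the number of genes tested can differ from 12703. Bmpr1a and Bmpr2 were the only ones of the 10 with both EpoR-null samples below all 3 controls, a pattern seen in 22.1% of all genes. None of the 10 had both above, against 21.2% of all genes. Log2 fold changes were negative for 3 of the 10 and positive for 7, with a median of 0.17 beside 0.06 over all tested genes.

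**Figure D2:**
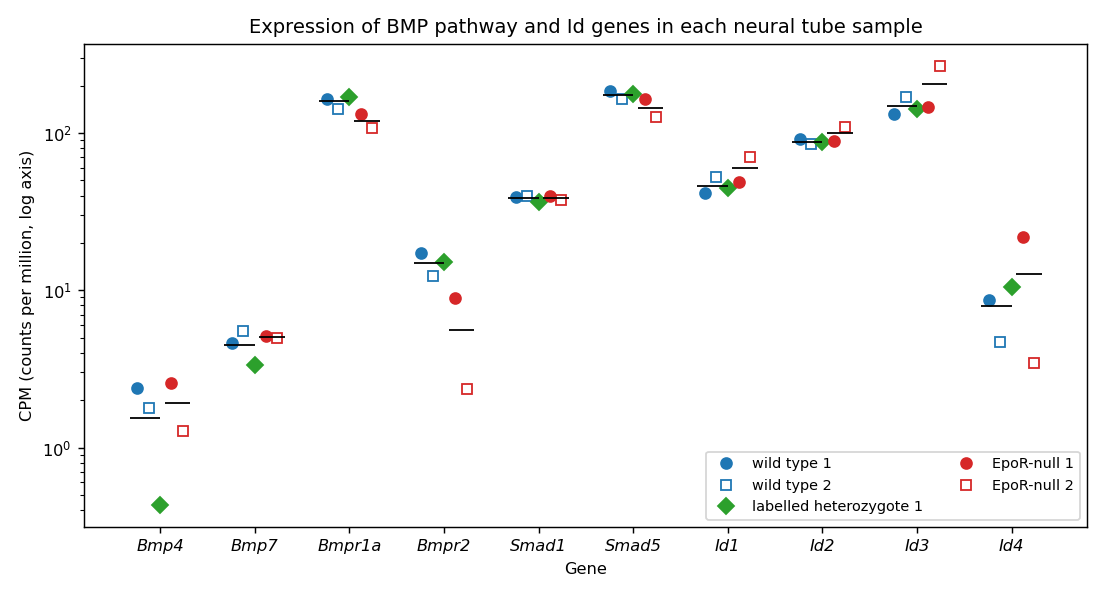
CPM (log axis) of the 10 genes in each of the 5 samples, with horizontal lines at the mean of the 3 controls and of the 2 EpoR-null samples. For Bmpr1a and Bmpr2 both EpoR-null samples lie below all controls, and for the other 8 genes the groups overlap.

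Compared per length, which allows for longer transcripts giving more reads, Id1, Id2 and Id3 stood at the top and the ligands, with Bmpr2 and Id4, near the bottom. In the controls Id3 had 115.3 ± 14.7 CPM per kilobase of its longest annotated transcript (SD, n = 3), followed by Id2 at 44.8 ± 1.35 and Id1 at 39.9 ± 4.80. Bmpr1a at 26.7 ± 2.41 and Smad5 at 26.6 ± 1.56 CPM per kilobase came next and differed by less than their spread. Smad1 reached 10.2 ± 0.402 CPM per kilobase. Id4, the least expressed of its family, had 2.06 ± 0.759 CPM per kilobase. Bmp7 at 1.22 ± 0.301 and Bmpr2 at 1.15 ± 0.188 CPM per kilobase were within each other's spread. Bmp4 was lowest at 0.745 ± 0.487 CPM per kilobase, with 1.16 and 0.866 in wild type and 0.209 in the library labelled heterozygote. The order rests on the transcript chosen, since the shortest coding transcript annotated for Bmpr1a has 641 bases and would raise its level to 247.8 CPM per kilobase.

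The ligands were present at low levels and did not separate by genotype. Bmp4 (chr14:46383520-46390669, minus strand, GRCm38) is made by the surface ectoderm and then by the roof plate. It had 2.40 and 1.79 CPM in the wild type samples, 0.432 CPM in the library labelled heterozygote, and 2.58 and 1.27 CPM in the EpoR-null samples. The EpoR-null values enclosed both wild type values, and the lowest value was that of the library labelled heterozygote, where only 10 reads were counted. The log2 fold change was 0.31 with a standard error of 0.76 (95% interval -1.18 to 1.80, FDR = 0.87), and without the library labelled heterozygote it was -0.13. In that library the 10 surface ectoderm markers also had their lowest sum, 6.18 CPM against 17.4 to 37.6 CPM in the other samples. Krt8 and Krt18 made up most of each sum, and only 3 of the 10 markers passed the filter. Grhl2 and Grhl3, at 0.432 and 0.648 CPM, were above both wild type samples there. Esrp1 lay between them, and the other markers were below both. The 7 roof plate markers summed to 203.1 CPM in that library, close to the 207.6 and 213.1 CPM of wild type. In bulk tissue, fewer cells of a type and less RNA per cell cannot be told apart.

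Bmp7 (chr2:172868012-172940321, minus strand), a ligand that can pair with Bmp4, showed 4.63 and 5.53 CPM in wild type, 3.33 CPM in the library labelled heterozygote, and 5.10 and 4.97 CPM in EpoR-null. Both EpoR-null values fell between the wild type values. Its log2 fold change was 0.16 with a standard error of 0.38 (95% interval -0.58 to 0.90, FDR = 0.87), and -0.02 without the library labelled heterozygote. Of the 12 other BMP and GDF ligands listed, 4 passed the filter on low counts and 1 changed, Gdf7, a ligand of the roof plate. Gdf7 had 1.53 and 2.69 CPM in wild type, 2.12 CPM in the library labelled heterozygote, and 0.505 and 0.387 CPM in EpoR-null. Its reads were few, 10 and 11 in the EpoR-null samples and 37 to 113 in the controls. Both EpoR-null values were below 1 CPM, so Gdf7 passed the filter on low counts through the controls alone. The groups did not overlap, but that gap is not independent of the filter. Both EpoR-null samples were below all 3 controls in 22.1% of all genes. Gdf7 fell by 2.26 on the log2 scale (standard error 0.52, FDR = 0.0014), a value that stayed between -2.45 and -2.03 when each sample in turn was left out. Without the second EpoR-null sample (-2.07, FDR = 0.029) it missed the limit on p. The roof plate markers summed to 188.5 and 177.7 CPM in the EpoR-null samples, below the 203.1 to 213.1 CPM of the controls. Zic1 made up most of each sum, with 131.9 to 141.5 CPM in the controls and 138.9 and 92.9 CPM in EpoR-null. Lmx1a, Wnt1 and Wnt3a were below all controls in the first EpoR-null sample and above all controls in the second. Lmx1b was below all controls in both. The part of the roof plate markers in the Gdf7 result was not tested.

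The 2 receptors had the lowest EpoR-null values of the 10 genes relative to the controls, and neither passed the test. Bmpr1a (chr14:34410734-34503341, minus strand), the type I receptor also known as ALK3, had 165.6 and 142.3 CPM in wild type, 168.6 CPM in the library labelled heterozygote, and 132.4 and 107.3 CPM in EpoR-null. The EpoR-null mean was 75.5% of the control mean, with a gap between the groups smaller than the distance between the EpoR-null samples. The log2 fold change was -0.41 with a standard error of 0.17 (95% interval -0.74 to -0.07), with p = 0.0185 and FDR = 0.14 by the exact test. Without the library labelled heterozygote it was -0.36, with p = 0.079 and FDR = 0.49 by the exact test.

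Bmpr2 (chr1:59763400-59879014, plus strand), the type II receptor, showed the largest difference among the 10 genes and also a large spread. It had 17.1 and 12.3 CPM in wild type, 15.1 CPM in the library labelled heterozygote, and 8.89 and 2.36 CPM in EpoR-null. The first EpoR-null sample was 3.77 times the second, against a spread of 2.43 CPM (SD, n = 3) around a mean of 14.9 CPM in the controls. The log2 fold change was -1.41 with a standard error of 0.57 (95% interval -2.53 to -0.28), with p = 0.0224 and FDR = 0.16 by the exact test. Without the library labelled heterozygote it was -1.39, with p = 0.048 and FDR = 0.40 by the exact test. Its longest transcript, at 12899 bases, is the longest of the 10.

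Of the 9 other BMP receptors and co-receptors, all of which passed the filter, only the type II receptor Acvr2b changed. Acvr2b serves BMPs as well as activins. It had 37.7 and 36.4 CPM in wild type, 40.6 CPM in the library labelled heterozygote, and 18.4 and 16.6 CPM in EpoR-null. The samples of each group lay close together, with control values 2.19 times those of EpoR-null. Acvr2b fell by 1.13 on the log2 scale (standard error 0.18, FDR = 7.84e-07), and by leaving out each sample in turn the value ranged from -1.21 to -1.06. The median log2 fold change of the 9 receptors was 0.01.

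Smad1 was level across the samples. Smad1 (chr8:79338395-79399518, minus strand), which carries the signal from the type I receptor, showed 38.9 and 39.5 CPM in wild type, 36.6 CPM in the library labelled heterozygote, and 40.0 and 37.7 CPM in EpoR-null. The 5 values spanned less than 10% of their level. Its log2 fold change was 0.02 with a standard error of 0.16 (95% interval -0.30 to 0.33, FDR = 0.97). Smad5 (chr13:56703010-56742377, plus strand), its close relative, had 184.9 and 164.4 CPM in wild type, 175.6 CPM in the library labelled heterozygote, and 164.4 and 125.9 CPM in EpoR-null. The first EpoR-null sample sat level with the lower wild type sample, and the second was below all others. The log2 fold change was -0.27 with a standard error of 0.17 (95% interval -0.61 to 0.07, FDR = 0.41). Per kilobase, Smad5 was 2.39 to 2.75 times Smad1 in the controls, 2.36 times in the first and 1.92 times in the second EpoR-null sample.

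None of the 6 other Smads and Smurf ligases, which mark Smads for destruction, changed, and their median log2 fold change was -0.18 (-0.08 when length and GC content are fitted as offsets). The most abundant of them was Smad4, the shared partner of the receptor Smads. Smad4 had 163.2 and 156.2 CPM in wild type, 165.9 CPM in the library labelled heterozygote, and 129.5 and 126.3 CPM in EpoR-null. Both EpoR-null samples were below all controls, but at -0.34 on the log2 scale (standard error 0.13, FDR = 0.093) the difference did not pass, while DESeq2 gave it an FDR of 0.0026.

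Id1, Id2 and Id3 had their highest value in the second EpoR-null sample, while the first lay within the control range. Id1 (chr2:152736251-152737410, plus strand), a direct target widely used as a readout of BMP signalling, showed 41.8 and 52.5 CPM in wild type, 44.7 CPM in the library labelled heterozygote, and 48.9 and 70.3 CPM in EpoR-null. Its log2 fold change was 0.36 with a standard error of 0.23 (95% interval -0.08 to 0.81, FDR = 0.37). Id3 (chr4:136143497-136145755, plus strand), the most abundant Id gene in every sample, had 131.5 and 168.1 CPM in wild type, 142.6 CPM in the library labelled heterozygote, and 145.7 and 266.8 CPM in EpoR-null. The second EpoR-null sample was 1.83 times the first, which fell inside the control range. The Id3 log2 fold change was 0.49 with a standard error of 0.29 (95% interval -0.09 to 1.06, FDR = 0.35), and without the second EpoR-null sample it was -0.02.

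Id2 (chr12:25093799-25097140, minus strand) had the tightest control values of the family, and only the second EpoR-null sample left their range. It showed 90.9 and 85.6 CPM in wild type, 88.0 CPM in the library labelled heterozygote, and 89.3 and 109.6 CPM in EpoR-null. The log2 fold change was 0.17 with a standard error of 0.15 (95% interval -0.12 to 0.47, FDR = 0.56).

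Id4 (chr13:48261228-48266026, plus strand) differed most between the EpoR-null samples themselves. It had 8.68 and 4.72 CPM in wild type, 10.4 CPM in the library labelled heterozygote, and 21.9 and 3.45 CPM in EpoR-null. The EpoR-null samples were the highest and the lowest of the 5, 6.35 times apart. The log2 fold change of 0.68 therefore had a standard error of 0.79 (95% interval -0.87 to 2.22, FDR = 0.67). It was 0.92 without the library labelled heterozygote, -1.19 without the first EpoR-null sample and 1.47 without the second.

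Summed over the family, Id RNA came to 272.8 and 310.9 CPM in wild type, 285.7 CPM in the library labelled heterozygote, and 305.8 and 450.1 CPM in EpoR-null. Id3 made up 47.7% to 54.1% of the sum in all samples but the second EpoR-null sample, where it made up 59.3%. The share of Id4 ran from 0.767% in that sample to 7.17% in the first EpoR-null sample, with 1.52% to 3.65% in the controls.

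Further genes around the pathway were taken from 8 lists with 90 genes, of which 67 passed the filter. Of these, 5 changed, all of them lower in EpoR-null, and the median log2 fold change was -0.00 over the 67. Over all tested genes 4.77% changed, and 488 of the 606 changed genes were lower, and nothing particular to these lists is read from their count or its direction. Gdf7 and Acvr2b were 2 of the 5, and the other 3 were nuclear co-factors of Smads. The list of co-factors held 14 genes, of which 13 passed the filter. Its median log2 fold change was -0.19 (-0.03 when length and GC content are fitted as offsets). Ep300, an acetyltransferase that acts with many transcription factors besides Smads, had 132.5 and 122.9 CPM in wild type, 131.5 CPM in the library labelled heterozygote, and 75.5 and 69.5 CPM in EpoR-null. Its groups were far apart relative to their spread, and it fell by 0.83 on the log2 scale (standard error 0.13, FDR = 5.25e-07). Crebbp, the paralog of Ep300, had 55.5 to 60.0 CPM in the controls and 35.6 and 25.4 CPM in EpoR-null, and fell by 0.91 (standard error 0.20, FDR = 0.00080). Hivep1, a zinc finger protein of the Schnurri family that binds Smads, had 48.4 to 52.5 CPM in the controls and 34.8 and 24.2 CPM in EpoR-null, and fell by 0.79 (standard error 0.21, FDR = 0.0090). Without wild type replicate 1, Crebbp and Hivep1 no longer passed, nor did Hivep1 without wild type replicate 2 or without the library labelled heterozygote. By edgeR's quasi-likelihood test none of the 5 passed, with FDR = 0.059 for Acvr2b and Ep300, 0.067 for Gdf7, 0.070 for Crebbp and 0.087 for Hivep1. That test called no gene of the whole table, where 3052 had an unadjusted p below 0.05.

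The other 4 lists held no changed gene. Their medians are also given from the fit with length and GC offsets, which is described with the length trend. Among the 17 extracellular antagonists and modulators, 14 passed the filter and 11 of these had a positive log2 fold change, with a median of 0.26 (0.17 with offsets). The most abundant was Fstl1, a secreted BMP-binding protein, which differed by 0.06 on the log2 scale (standard error 0.14, FDR = 0.87). Among 11 other BMP-induced transcription factors, 8 passed the filter, 7 with a positive log2 fold change, and the median was 0.51 (0.26 with offsets). Msx3, a homeobox gene of the dorsal neural tube, was the most abundant of them. Msx3 had 66.5 and 66.1 CPM in wild type, 80.0 CPM in the library labelled heterozygote, and 100.4 and 89.2 CPM in EpoR-null. Both EpoR-null samples were above all controls, but at 0.42 on the log2 scale (standard error 0.16, FDR = 0.086) the difference did not pass. Without the library labelled heterozygote the difference was 0.52 (FDR = 0.13). The 3 E proteins that Id proteins bind had a median of -0.36 (-0.01 with offsets), and the most abundant, Tcf3, ranged from 336.7 to 405.7 CPM in the controls with 298.5 and 432.9 CPM in EpoR-null. Of 18 genes of the TGF-beta, activin and nodal branch, 10 passed the filter, with a median of -0.08 (0.31 with offsets). The type I receptor Tgfbr1 was the most abundant, with 222.6 to 265.8 CPM in the controls and 225.7 and 155.5 CPM in EpoR-null (log2 fold change -0.40, standard error 0.22, FDR = 0.30). Smad3 of this list met the limit on FDR but missed that on p (p = 0.0020, FDR = 0.033 by the exact test). It had 170.4 to 173.5 CPM in the controls and 122.8 and 135.1 CPM in EpoR-null (log2 fold change -0.42, standard error 0.13). With offsets its log2 fold change was -0.28 (likelihood-ratio test, FDR = 0.87).

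The order of the 10 genes by log2 fold change followed the length of their transcripts, as it did over all genes. Across the 12586 tested genes with an annotated transcript length, Spearman's rho between length and log2 fold change was -0.63, and across the 10 genes it was -0.71. These are correlations across genes of the same 5 libraries, which are not independent replicates. Genes with transcripts under 1500 bases, the class of Id1 and Id3, had a median log2 fold change of 0.43. The medians were 0.22 from 1500 to 3000 bases (Bmp4 and Id2), -0.01 from 3000 to 5000 bases (Bmp7, Id4 and Smad1) and -0.26 from 5000 to 7500 bases (Bmpr1a and Smad5). From 7500 bases on, the class of Bmpr2, the median was -0.50 and 24.8% of genes were called lower. The values of Id1 (0.36), Id3 (0.49), Bmp4 (0.31), Id2 (0.17), Smad1 (0.02) and Smad5 (-0.27) thus lay within 0.1 of the median of their length class. Those of Bmpr2 (-1.41) and Id4 (0.68) lay farthest from it.

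**Figure D3:**
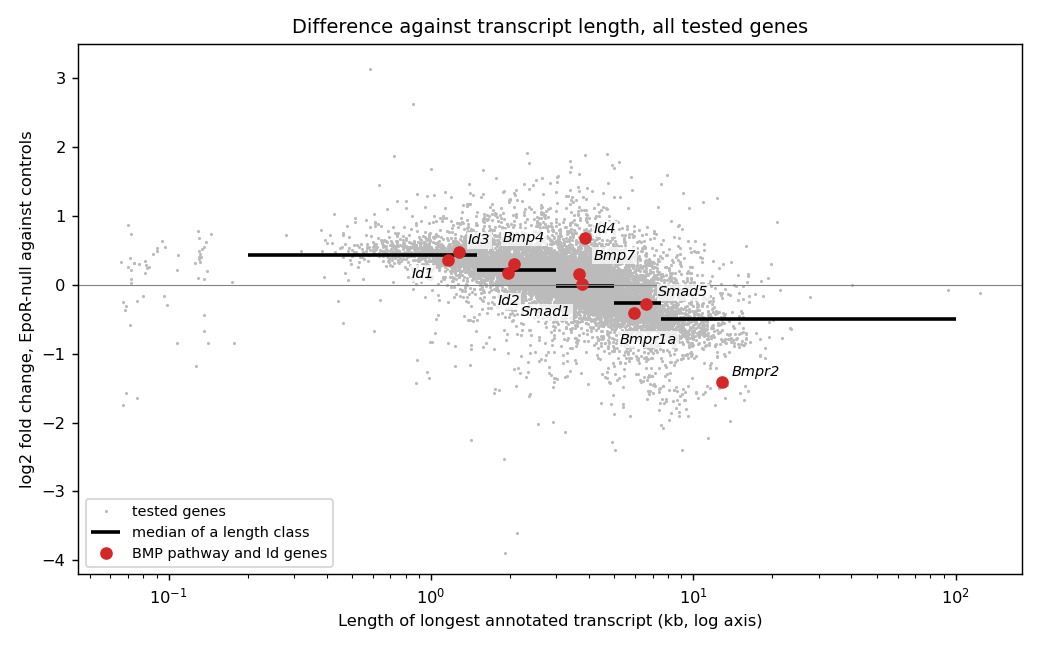
Log2 fold change of EpoR-null against controls for each tested gene with a known length (grey), against the length of its longest annotated transcript (kilobases, log axis). Black bars are medians of 5 length classes, from 0.43 for the shortest to -0.50 for the longest (the outer classes are open-ended), and most of the 10 genes (red) lie near the bar of their class.

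This trend was strongest in the second EpoR-null sample. There, genes under 1500 bases lay a median of 0.38 above their mean over the 5 samples on the log2 scale and genes of 7500 bases or more 0.51 below it. The first EpoR-null sample had the same signs with values of 0.10 and -0.14, and the 3 controls had the opposite signs. As each value is taken from the mean of the same 5 samples, the signs of the controls are not independent of those of EpoR-null. When length and GC content were fitted as offsets for each sample, rho over all genes was 0.02. The log2 fold changes of the 10 genes were then -0.07 for Bmpr1a, 0.10 for Smad5, -0.10 for Id1, -0.04 for Id2 and 0.02 for Id3. Bmpr2 moved from -1.41 to -0.87, the largest move of the 10 genes, and Id4 was at 0.65. The offsets rest on the longest annotated transcript of each gene, and other lengths were not tried. With these offsets, in a likelihood-ratio test, Acvr2b (3175 bases, log2 fold change -1.25, FDR = 4.22e-07) and Gdf7 (1423 bases, -2.40, FDR = 0.00075) still passed. The co-factors, whose transcripts have 8753 to 10820 bases, did not pass, with -0.32 for Ep300, -0.40 for Crebbp and -0.35 for Hivep1. Genotype and the length trend cannot be told apart with 2 EpoR-null samples that both carry it.

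**Figure D4:**
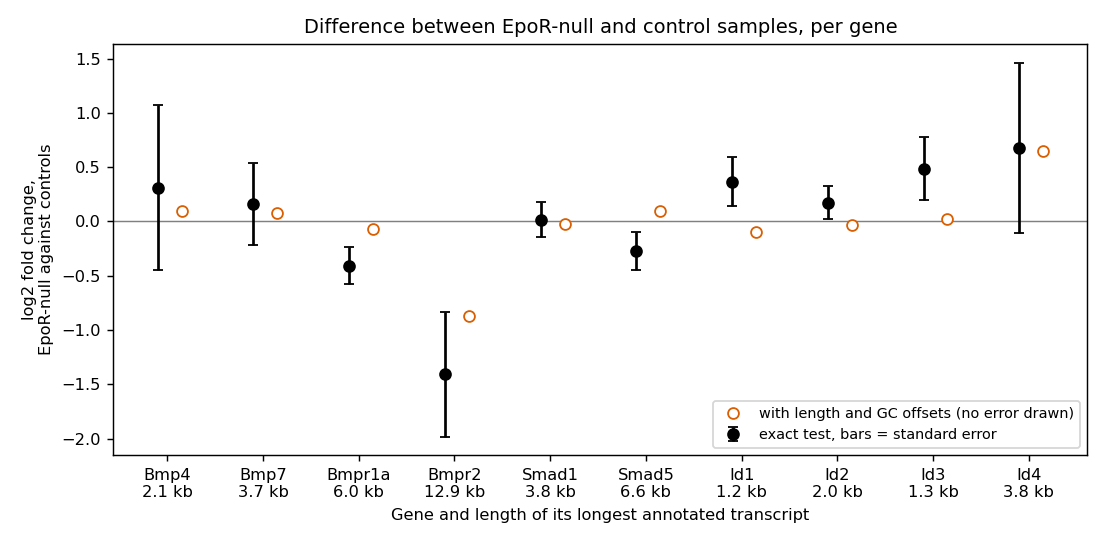
Log2 fold change of EpoR-null against controls for each of the 10 genes by the exact test (black, bars are the standard error) and with length and GC offsets (open circles, no error drawn). With offsets Bmpr1a, Smad5, Id1, Id2 and Id3 move to within 0.1 of 0, while Bmpr2 moves from -1.41 to -0.87 and Id4 is at 0.65.

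The 10 genes also depended on which EpoR-null sample was used. With the first left out, log2 fold changes against the 3 controls were -0.56 for Bmpr1a, -2.65 for Bmpr2, 0.60 for Id1 and 0.86 for Id3. The remaining EpoR-null sample is then alone and is assumed to vary as the controls do. No count of passing genes is therefore read as a result about the 10. With the second left out, Bmpr1a was at -0.26, Bmpr2 at -0.74, Id1 at 0.07 and Id3 at -0.02. Both EpoR-null samples gave a negative sign for Bmpr1a, Bmpr2 and Smad5 and a positive sign for Bmp7, Id1 and Id2, and they differed in sign for Bmp4, Smad1, Id3 and Id4.

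**Figure D5:**
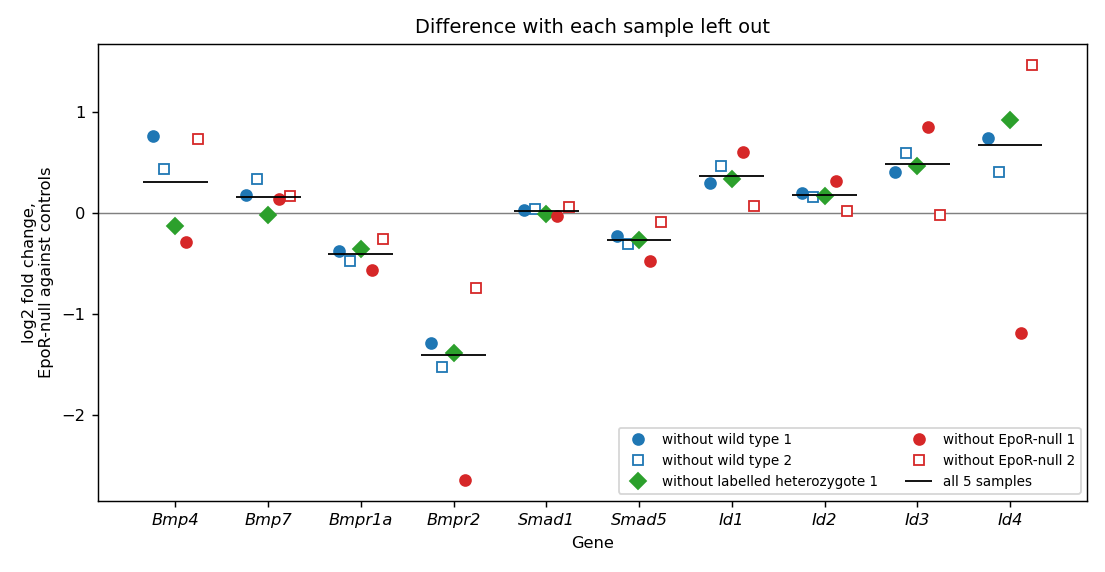
Log2 fold change of EpoR-null against controls for each of the 10 genes when each of the 5 samples is left out (points), with the value from all samples as a line. Leaving out an EpoR-null sample (red) moves Bmpr2 between -2.65 and -0.74 and Id4 between -1.19 and 1.47, more than leaving out a control.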

How the data were processed

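PolyA RNA-seq of neural tubes from 5 mouse samples was analysed. The authors deposited raw read counts per gene, 1 table per sample, without normalization. The submitters' processing notes name Trimmomatic 0.32, TopHat2 2.1.0, HTSeq 0.6.1 and the mouse build mm9, while the paper's methods name a human build and another TopHat version, and the gene annotation and the use of strand are not given in the sources used here. HTSeq leaves out reads that fit several places or several genes. Summary rows without a gene held 8.12% to 11.0% (no feature) and 1.85% to 2.31% (ambiguous) of the reads on genes and in these rows, and were not used.

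Samples were grouped from their labels. The read counts were tested with edgeR 4.0.16 (R 4.3.3), following the methods of the study: TMM normalization, tagwise dispersions (estimateDisp) and exactTest, 2 EpoR-null against 3 controls, with p < 0.001 and FDR < 0.05. The filter on low counts (above 1 CPM in 2 samples or more) was set here, as the methods name none. CPM values use TMM library sizes. Standard errors were taken from the information of each gene's negative binomial fit, and 95% intervals from these. Both take the dispersion of a gene as known, so the intervals may be too narrow for 2 against 3 samples. Counts per sample bound the precision, and limits from 3 reads cover counting error only. No 2 libraries agreed within sampling noise (lowest chi-square per degree of freedom 11.95).

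Positions, lengths and sequences came from GENCODE M21 (GRCm38), matched by symbol for all 10 genes and for 99.1% of tested genes. The count tables hold no coordinates, and none were converted. The 10 genes, the pathway lists and the marker lists were chosen with earlier results of these data known. Outside the 10, named genes are the called genes of each pathway list (at most 4) or, without a call, the gene of highest mean CPM. Smad3 was added because it passed by FDR alone. Alternatives were quasi-likelihood, likelihood-ratio and DESeq2 1.42.0 tests, other scalings and filters, loess offsets on length and GC content (span 0.5), a replicate block and each sample left out. The code was tested on simulated counts.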

Additional observations from a re-analysis of the deposited data

How the results depend on the processing

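None of the 10 genes passed in any alternative except without EpoR-null replicate 1, so the count ran from 0 to 4 when 1 sample was left out. Over 160 values of the 10 genes in alternatives, 138 kept their direction and 22 did not. With length and GC offsets, likelihood-ratio and quasi-likelihood fits gave -0.027 and -0.027 for Smad1, 0.095 and 0.095 for Smad5, -0.098 and -0.099 for Id1 and -0.036 and -0.037 for Id2. Adding the replicate block gave -0.027, 0.091, -0.14 and -0.054 for these genes and -0.064 for Id3. Smad1 was -0.029 with library size only and -0.018 without a filter. Leave-one-out values ran from -0.28 to 0.76 for Bmp4, -0.017 to 0.34 for Bmp7, -0.56 to -0.26 for Bmpr1a, -2.65 to -0.74 for Bmpr2, -0.026 to 0.056 for Smad1, -0.47 to -0.091 for Smad5, 0.073 to 0.60 for Id1, 0.016 to 0.31 for Id2, -0.020 to 0.86 for Id3 and -1.19 to 1.47 for Id4. Without the library labelled heterozygote, Bmp4 was -0.13, Bmp7 -0.017 and Smad1 -0.015.

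The 5 pathway genes called became 0 by edgeR's quasi-likelihood test (13 at unadjusted p below 0.05, lowest FDR of all genes 0.059), 2 with offsets in the likelihood-ratio test, 0 with offsets in the quasi-likelihood test (11 unadjusted), and 3 to 16 when 1 sample was left out (3 without wild type replicate 1, 16 and 10 without EpoR-null replicate 1 and 2). By DESeq2 there were 7, with Smad3 and Smad4 added. Over all genes, the 606 calls became 0 by the quasi-likelihood test (3052 unadjusted), 1041 by DESeq2, 928 by FDR alone, 171 with offsets in the likelihood-ratio test, 0 with offsets in the quasi-likelihood test (1227 unadjusted), and 115 to 2296 when 1 sample was left out. The numbers 1 and 2 are shared by wild type and EpoR-null, but nothing says what a number marks. Differences of replicate 1 minus 2 correlated across 12703 genes in the 2 genotypes (r = 0.43). With the replicate block, the quasi-likelihood test called 291 genes, 2 of them in the pathway lists and none of the 10, and 0 genes of either kind with offsets added (1291 and 13 unadjusted). The cause of these shifts was not tested.

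With 2 EpoR-null samples the 95% intervals were widest for Id4 (-0.87 to 2.22) and for Bmp4 (-1.18 to 1.80), so differences within them were not detectable. Bmp4 had the fewest reads of the 10 genes, 10 to 75 in a sample. Id4 had 98 to 434 reads, and its EpoR-null values were 6.35 times apart.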
